A study of Homo sapiens with 27 samples.

Results

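The 9 genes described here belong to the insulin-like growth factor (IGF) axis: the growth factors IGF1 and IGF2, their receptor IGF1R, and the binding proteins IGFBP2, IGFBP3, IGFBP4, IGFBP5, IGFBP6 and IGFBP7. They were taken by name from the Ensembl identifiers of the count tables, and all 9 were found among the 60534 gene identifiers listed in every library. They were followed in IMR90 cells, a line of human fetal lung fibroblasts, by RNA-seq (13 libraries) and by Ribo-seq (14 libraries), which sequences the mRNA fragments that ribosomes shield from RNase. Cycling cells had no treatment (2 RNA-seq and 3 Ribo-seq libraries), and quiescent cells were arrested by contact inhibition (3 and 3). Irradiated cells were senescent after 15 Gy of ionizing radiation and were harvested after 10 days (3 and 3). Etoposide cells were senescent after 3 treatments with 50 µM etoposide, a topoisomerase II poison, over 10 days (3 and 3). Thapsigargin cells were cycling cells given 25 nM thapsigargin, a blocker of the pump that fills the endoplasmic reticulum with calcium, for 3 h (2 and 2). The labels give the first 4 states as wild type, and no genotype is stated for the thapsigargin libraries. All were grown in high-glucose DMEM with fetal bovine serum and non-essential amino acids, and an antibiotic and antimycotic mix is named for all states except thapsigargin. The labels do not say that numbered libraries of a state came from separate cultures, so the p-values measure the spread between these libraries, which may be technical.

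IGF1 and IGF2 are secreted peptides that activate IGF1R, a receptor tyrosine kinase of the cell surface, which signals through adaptor proteins to PI3K, AKT and the FOXO transcription factors. The binding proteins are secreted too. They hold the growth factors outside the cell, and proteases that cut the binding proteins set the growth factors free. Several binding proteins are known components of what senescent fibroblasts secrete, and IGFBP3, IGFBP5 and IGFBP7 have been linked to growth arrest. Being secreted or membrane proteins, all 9 are made on ribosomes bound to the endoplasmic reticulum.

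In units of 1e6 gene counts, libraries held 20.6 to 57.1 in RNA-seq and 1.94 to 20.0 in Ribo-seq, lowest in the thapsigargin Ribo-seq libraries. All 8 fibroblast markers (COL1A1, COL1A2, COL3A1, VIM, PDGFRB, THY1, DCN and LUM) reached 1 CPM (counts per 1e6, after TMM scaling) or more in every state. Their summed level in Ribo-seq was 11710 to 12080 CPM in thapsigargin libraries against 34220 to 36300 CPM in cycling ones, and it was 17940 to 35160 CPM in quiescent, 22070 to 24080 in irradiated and 29390 to 31930 in etoposide libraries. Among 5 epithelial markers only KRT19 reached 1 CPM in RNA-seq, while KRT5 was at 0 in all RNA-seq libraries outside etoposide. KRT19 ran from 1.84 to 88.7 CPM in RNA-seq, highest with thapsigargin (81.9 to 88.7 CPM). In Ribo-seq KRT19 ran from 5.37 to 144 CPM, again highest with thapsigargin, and EPCAM reached 1.10 CPM in cycling cells. Endothelial markers (4 genes) summed to at most 2.41 CPM and leukocyte markers (3 genes) to at most 0.709 CPM in RNA-seq, with CD3E at 0 outside etoposide and CDH5 at 0 in cycling, quiescent and thapsigargin libraries. Their sums in Ribo-seq were at most 2.69 and 0.52 CPM. The part of these markers in the results below was not tested. MKI67, a marker of dividing cells, was at 133 and 154 CPM in cycling RNA-seq libraries, 38.1, 136 and 49.2 in quiescent replicates 1, 2 and 3, 9.65 to 16.7 in irradiated and at most 7.18 in etoposide ones. Quiescent replicate 2 thus lay in the cycling range, which goes against its label, while its LMNB1, a nuclear lamina gene that falls in senescence, was 38.9 CPM against 64.2 and 76.2 in cycling cells. In Ribo-seq MKI67 was 69.3, 127 and 76.5 CPM in quiescent libraries against 179 to 219 in cycling ones. Without quiescent RNA-seq replicate 2, the number of the 9 genes called in RNA-seq was the same in each comparison with quiescent cells (1 against cycling, 1 for irradiated and 6 for etoposide cells). Unmapped reads made up 1.35% to 1.40% of the thapsigargin RNA-seq reads and 27.9% to 40.7% of those of the other states. Multi-mapping reads made up 65.2% and 66.9% in thapsigargin Ribo-seq libraries and 19.8% to 31.9% in the other Ribo-seq ones. For reads outside genes these shares were 12.8% and 11.4% against 1.45% to 2.93%. Thapsigargin and the preparation of its libraries thus cannot be told apart. In whole cultures, fewer cells making a transcript and less transcript per cell cannot be told apart either.

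IGFBP6 was lower in quiescent, irradiated and etoposide cells than in cycling ones. Etoposide cells had more IGFBP2, IGFBP4 and IGFBP7 mRNA than cycling, quiescent or irradiated cells, and thapsigargin cells had less IGFBP5 than cycling ones. A gene was called changed when its adjusted p was under 0.05 over all genes tested (two-sided edgeR quasi-likelihood test with Benjamini-Hochberg adjustment). In RNA-seq all 9 genes could be tested. Against cycling cells, 1 of 9 was called in quiescent cells (15.5% of all 13314 genes tested were called in that comparison), 3 of 9 in irradiated cells (34.9% of all genes), 5 of 9 in etoposide cells (34.5%) and 5 of 9 in thapsigargin cells (24.5%). Their median log2 fold change was -0.51 in quiescent, -0.24 in irradiated, 1.13 in etoposide and -0.98 in thapsigargin cells, where the median over all genes lay between -0.03 and 0.03. In Ribo-seq 8 of 9 could be tested, since IGF1 had too few counts. The calls there were 2 of 8 in quiescent (22.6% of 11762 genes), 2 of 8 in irradiated (40%), 6 of 8 in etoposide (33.6%) and 7 of 8 in thapsigargin cells (44.3%). IGF2 passed the count filter of Ribo-seq only through its thapsigargin libraries, so its call there is no support for that count. Leaving out 1 library moved several of these counts by more than 1.5 times. In RNA-seq the quiescent count was 2 without quiescent replicate 1 and 3 without replicate 3. The etoposide count was 2 without either cycling library and 3 without etoposide replicate 1. The thapsigargin count was 2 without cycling replicate 1, 1 without cycling replicate 2, and 2 and 3 without thapsigargin replicate 1 and 2. In Ribo-seq the quiescent count was 1 without any 1 cycling library or quiescent replicate 2 and 5 without quiescent replicate 3, and the irradiated count was 1 without irradiated replicate 1.

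**Figure D1:**
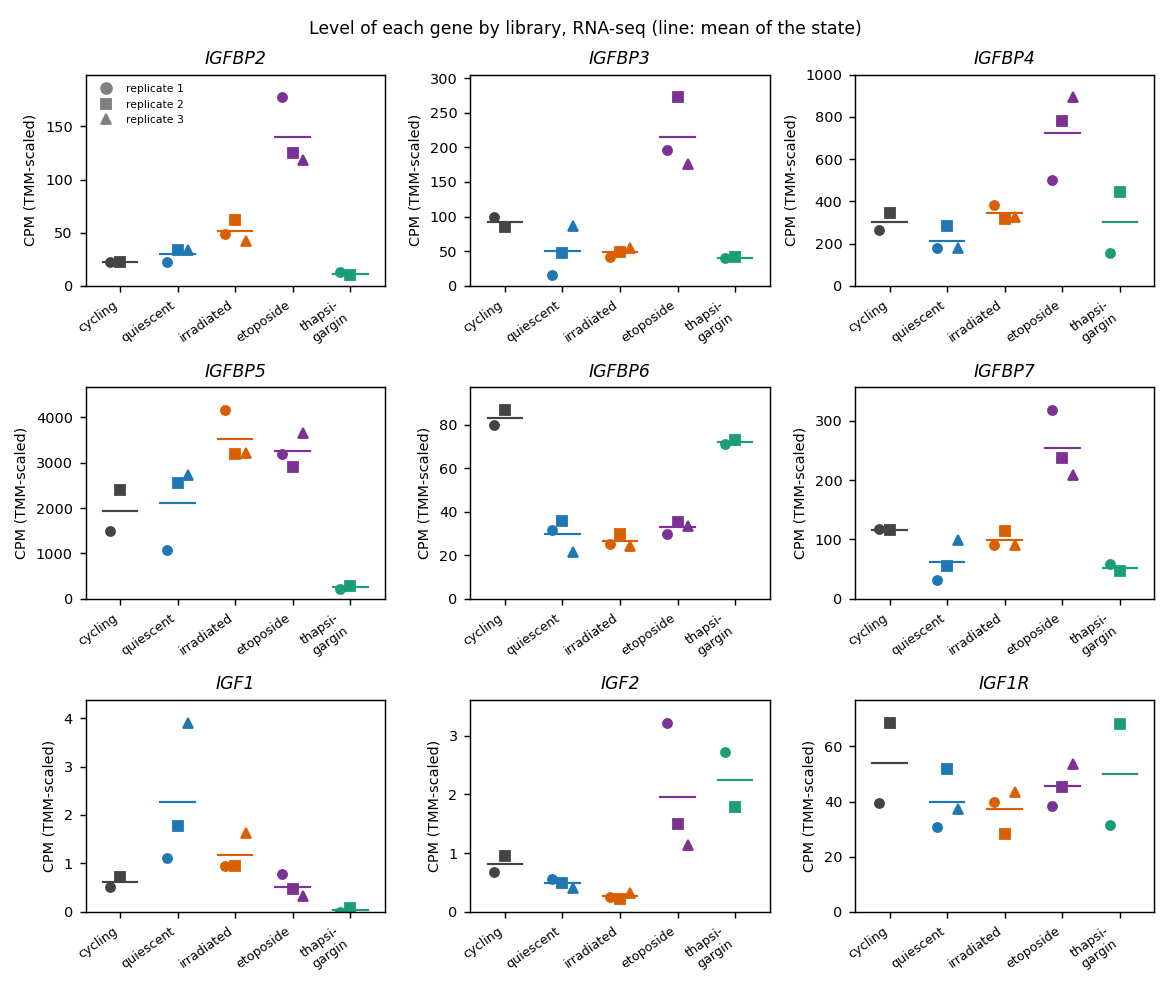
RNA-seq level of each gene by library, in CPM after TMM scaling (y axes start at 0 and differ between panels), for the 5 states. Symbols mark the replicate number, and lines are the means of each state. IGFBP2, IGFBP3, IGFBP4 and IGFBP7 are highest in the 3 etoposide libraries, IGFBP6 is highest in cycling cells, and IGFBP5 is lowest with thapsigargin.

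**Figure D2:**
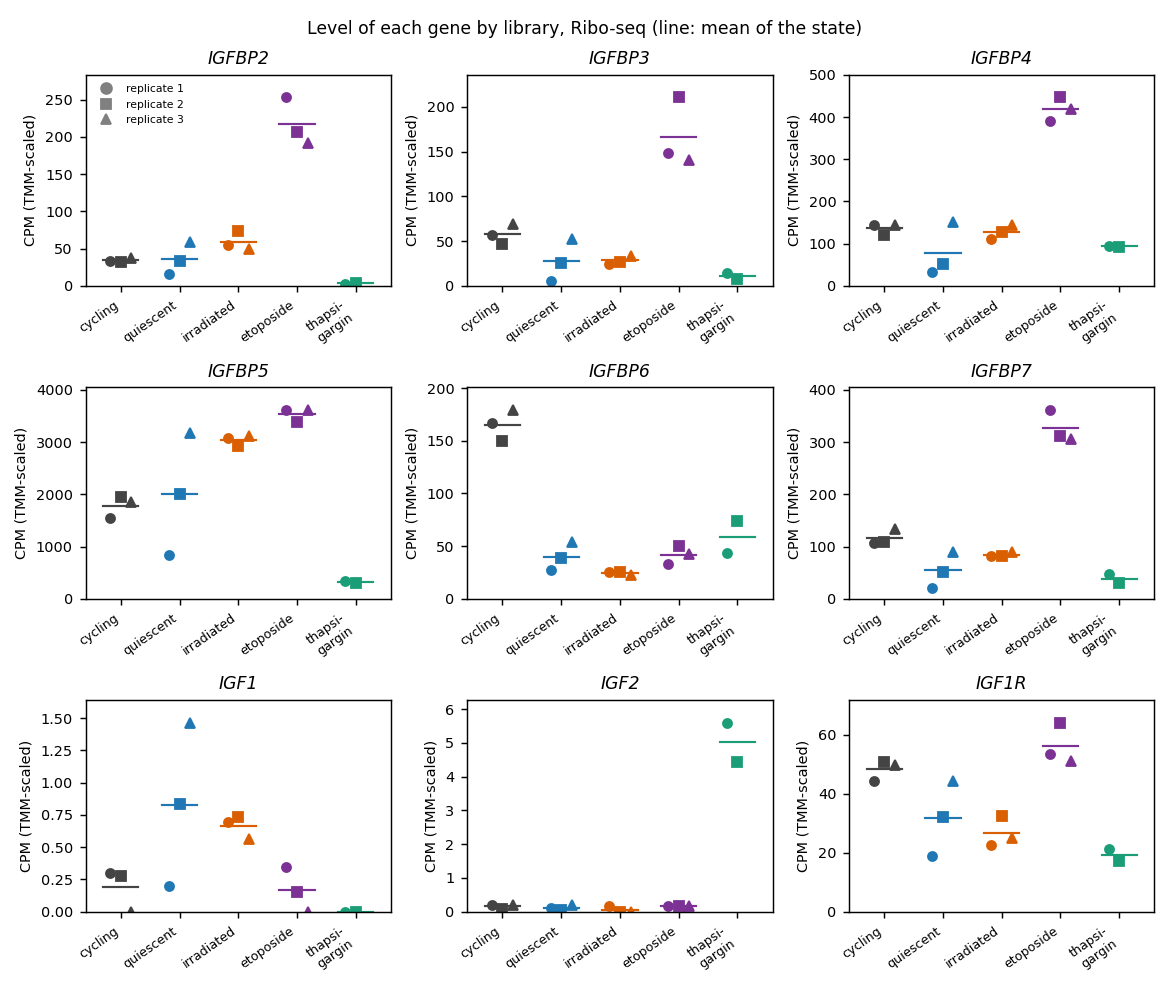
Ribo-seq level of each gene by library, drawn as for RNA-seq (CPM after TMM scaling, y axes start at 0 and differ between panels, lines are means of each state). IGFBP6 runs from 150 to 179 CPM in the 3 cycling libraries and reaches at most 73.5 CPM in all others. The points of IGF1 and IGF2, and those of IGFBP2 with thapsigargin, rest on few counts.

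The growth factors themselves had few counts. IGF1, which lies at chr12:102395874-102481839 on the minus strand (GRCh38.p14), had 0 to 105 RNA-seq counts per library. Its level was 0.50 and 0.72 CPM in cycling cells, 1.10, 1.77 and 3.90 in quiescent cells, 0.94, 0.94 and 1.63 in irradiated cells, 0.77, 0.46 and 0.32 in etoposide cells, and 0 and 0.081 with thapsigargin. All 3 quiescent and all 3 irradiated libraries lay above both cycling ones, and both thapsigargin libraries lay below every other library. The difference of quiescent from cycling cells, 1.90 ± 0.63 (log2, SE), did not pass the threshold (adjusted p = 0.057). It did pass with DESeq2 (adjusted p = 0.014), without the thapsigargin libraries (0.036) and without quiescent replicate 1 (0.027). With thapsigargin IGF1 fell by 3.60 ± 0.95 (adjusted p = 0.014), on 0 and 5 counts against 15 and 15. The size is poorly bounded: it was -7.23 without thapsigargin replicate 2, which leaves the library at 0 counts, and -2.83 without replicate 1. That call was lost without cycling replicate 2 or thapsigargin replicate 1, which each leave 1 library in a group. It was also lost in a fit of the 2 states alone (adjusted p = 0.066) and with counts of both strands (0.074). LINC02456 overlaps IGF1, and its part in this was not tested. In etoposide cells IGF1 was lower than in quiescent ones by a log2 difference of -2.13 ± 0.53 (adjusted p = 0.0058), which was also lost with counts of both strands (adjusted p = 0.21). Ribo-seq gave 0 to 30 counts of IGF1 per library, most of them in quiescent replicates 2 and 3 (15 and 30 counts). Both thapsigargin Ribo-seq libraries held 0, which at their depth allows up to 1.52 and 1.48 CPM (3 counts, counting error only) and so covers the levels measured in cycling cells.

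IGF2, at chr11:2129117-2149566, had few counts as well, from 6 to 121 per RNA-seq library. Its levels were 0.67 and 0.96 CPM in cycling libraries, 0.55, 0.49 and 0.41 in quiescent ones, 0.24, 0.22 and 0.33 in irradiated ones, 3.22, 1.49 and 1.14 in etoposide ones, and 2.72 and 1.78 in thapsigargin ones. The 5 etoposide and thapsigargin libraries were above both cycling libraries and the 3 irradiated ones were below them, with no overlap. IGF2 rose by 1.26 ± 0.45 (log2, SE) in etoposide cells (adjusted p = 0.045) and by 1.47 ± 0.48 with thapsigargin (adjusted p = 0.037). It was lower in irradiated cells by a log2 difference of -1.60 ± 0.53 (adjusted p = 0.032). These 3 calls were each lost when either cycling library was left out (adjusted p from 0.066 to 0.27), and also without etoposide replicate 1 (0.20), irradiated replicate 1 or 2 (0.080 and 0.084) or thapsigargin replicate 1 (0.14). The etoposide and thapsigargin calls were lost in fits of the 2 states alone as well (0.062 and 0.060). The difference between the senescent states did not rest on cycling cells: irradiated minus etoposide gave -2.87 ± 0.45 (adjusted p = 0.00071), called under all 13 alternatives. IGF2 shares its locus with the read-through gene INS-IGF2, with IGF2-AS and with MIR483, and INS-IGF2 had 0 counts in all libraries. Reads that fall in both annotated genes are counted for neither, so the IGF2 counts leave them out. In Ribo-seq IGF2 had 0 to 4 counts in each of the 12 libraries outside thapsigargin and 11 and 9 counts in the thapsigargin ones. That is 5.59 and 4.44 CPM against at most 0.21 CPM in any other library, and the fitted log2 change against cycling cells was 4.95 ± 0.60. Since IGF2 passed the count filter of Ribo-seq only through the thapsigargin libraries, its test there is no support for a rise. The thapsigargin Ribo-seq files list 62703 gene identifiers and the remaining 12 Ribo-seq files 60664, and the effect of that difference on this overlapping gene was not tested.

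IGF1R, at chr15:98648539-98964530 on the plus strand, encodes the receptor. Its RNA-seq level was 39.3 and 68.5 CPM in cycling cells, and the 11 libraries of the other states lay between 28.3 and 68.2 CPM. The ranges of every pair of neighbouring states overlapped, and no RNA-seq comparison called it. Its footprints separated the states more: 44.3, 50.7 and 49.9 CPM in cycling libraries, 18.9, 32.2 and 44.2 in quiescent ones, 22.7, 32.4 and 25.1 in irradiated ones, 53.4, 64.1 and 51.0 in etoposide ones, and 21.3 and 17.3 CPM in thapsigargin ones. Quiescent, irradiated and thapsigargin libraries lay below all cycling ones and etoposide libraries above them. Without TMM scaling the etoposide libraries (48.1 to 58.8 CPM) overlapped the cycling ones (44.4 to 50.4 CPM). Quiescent replicate 3, at 45.4 CPM, then also lay within the cycling range. IGF1R footprints fell by 0.87 ± 0.25 (log2, SE) in irradiated cells (adjusted p = 0.012) and by 1.32 ± 0.32 with thapsigargin (adjusted p = 0.0045), while the etoposide difference of 0.22 ± 0.24 was not called (adjusted p = 0.52). They were higher in etoposide than in quiescent cells by 0.82 ± 0.24 (adjusted p = 0.014). The irradiated call was lost without irradiated replicate 1 (adjusted p = 0.068), and the call against quiescent cells without etoposide replicate 1 (0.055) or 2 (0.10) and in a fit of the 2 states alone (0.10). Without quiescent replicate 3, the highest of its state, quiescent cells were called lower than cycling ones (adjusted p = 0.0065).

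RefSeq's promoter table (GRCh38.p14) holds 10 start sites of 7 of the 9 genes, and none for IGFBP7 or IGF2. The 100 bases upstream of the start are printed for the binding protein genes with 1 listed start, 5′ to 3′ on the gene's strand, because IGFBP3 and IGFBP4 were high in etoposide cells while IGFBP6 was low there and IGFBP5 was the one that fell most with thapsigargin in RNA-seq. Capitals mark the letters TATANA (N any base) on the gene's strand.
IGFBP3 (chr7:45921273-45921372, minus strand): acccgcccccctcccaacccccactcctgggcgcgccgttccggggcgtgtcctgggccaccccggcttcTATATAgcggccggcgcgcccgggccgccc
IGFBP4 (chr17:40443350-40443449, plus strand): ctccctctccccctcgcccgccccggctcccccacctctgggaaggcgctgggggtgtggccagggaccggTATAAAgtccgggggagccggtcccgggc
IGFBP5 (chr2:216695550-216695649, minus strand): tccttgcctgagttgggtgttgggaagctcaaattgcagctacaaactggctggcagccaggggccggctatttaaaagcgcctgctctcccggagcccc
IGFBP6 (chr12:53097567-53097666, plus strand): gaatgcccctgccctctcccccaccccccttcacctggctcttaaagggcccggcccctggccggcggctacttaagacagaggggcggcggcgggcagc
The match began at position -30 from the start in IGFBP3 and at -29 in IGFBP4, and none of the other 8 starts of these genes held it in this window. Those without it include all 3 starts of IGFBP2, which was also high in etoposide cells. Of 35116 promoters in the table, 5.97% had a match on the gene's strand in the same window and 8.05% on either strand. G and C made up 79% of the window in IGFBP3, 76% in IGFBP4, 59% in IGFBP5 and 72% in IGFBP6. These matches are letters in a sequence, and no measurement here bears on binding at them.

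IGFBP2, a binding protein that also holds an integrin-binding motif, rose in both senescent states at the mRNA level and most in etoposide cells. The gene lies at chr2:216632828-216664436 on the plus strand, next to IGFBP5. Its RNA-seq level was 22.6 and 22.5 CPM in cycling libraries, 22.1, 33.6 and 34.0 in quiescent ones, 49.3, 61.9 and 42.5 in irradiated ones, 177, 125 and 119 in etoposide ones, and 12.8 and 10.1 in thapsigargin ones. The 3 etoposide libraries were above all others, the 3 irradiated ones above all quiescent and cycling ones, and the thapsigargin ones below all others. The log2 fold change against cycling cells was 2.64 ± 0.25 (SE) in etoposide cells (adjusted p = 2.9e-06, 6.22-fold) and 1.18 ± 0.23 in irradiated cells (adjusted p = 0.0015, 2.27-fold), both called under all 12 alternatives. Quiescent cells differed from cycling ones by 0.41 ± 0.23 (adjusted p = 0.27), and irradiated cells were higher than quiescent ones by 0.78 ± 0.20 (adjusted p = 0.017), a call lost without irradiated replicate 2 (adjusted p = 0.10). With thapsigargin IGFBP2 mRNA fell by 0.98 ± 0.25 (adjusted p = 0.012), a call lost without cycling replicate 1 (adjusted p = 0.060), cycling replicate 2 (0.059) or thapsigargin replicate 2 (0.081).

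Footprints of IGFBP2 ran 33.6, 32.1 and 36.9 CPM in cycling libraries, 16.4, 33.5 and 58.6 in quiescent ones, 55.2, 73.7 and 49.9 in irradiated ones, 253, 207 and 192 in etoposide ones, and 2.54 and 4.44 in thapsigargin ones. Etoposide libraries were again the highest and thapsigargin libraries the lowest, with no overlap with any other state. The 2 thapsigargin levels rest on 5 and 9 counts. Against cycling cells the log2 fold change was 2.67 ± 0.33 (SE) in etoposide cells (adjusted p = 2.1e-05) and -3.28 ± 0.63 with thapsigargin (adjusted p = 0.00092). In irradiated cells it was 0.79 ± 0.33 and not called (adjusted p = 0.065), although the 3 irradiated libraries lay above the 3 cycling ones. DESeq2 called that difference (adjusted p = 0.048), as did a fit of the 2 states alone (6.6e-05).

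IGFBP3, the main carrier of IGFs in blood, was high in etoposide cells. It lies at chr7:45912245-45921272 on the minus strand. RNA-seq gave 99.6 and 84.6 CPM in cycling libraries, 15.4, 48.0 and 86.6 in quiescent ones, 41.9, 48.7 and 55.4 in irradiated ones, 197, 272 and 176 in etoposide ones, and 39.6 and 42.3 in thapsigargin ones. All irradiated and thapsigargin libraries lay below both cycling libraries and all etoposide libraries above them, while quiescent cells spanned a wide range. None of these differences from cycling cells was called in RNA-seq: the log2 values were -0.88 ± 0.44 (SE) in quiescent (adjusted p = 0.21), -0.92 ± 0.44 in irradiated (0.12), 1.22 ± 0.46 in etoposide (0.055) and -1.17 ± 0.49 in thapsigargin cells (0.10). The last 3 were called in fits of the 2 states alone (adjusted p = 3.9e-06, 0.0012 and 0.010), and the quiescent one without quiescent replicate 3 (0.015).

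IGFBP3 footprints gave 56.6, 46.8 and 69.3 CPM in cycling libraries, 5.63, 25.8 and 52.0 in quiescent ones, 25.1, 27.3 and 33.6 in irradiated ones, 149, 211 and 141 in etoposide ones, and 14.2 and 7.89 in thapsigargin ones. The states stood in the same relation to cycling cells as in RNA-seq. Here etoposide cells were called higher, with a log2 change of 1.54 ± 0.48 (SE, adjusted p = 0.023), and thapsigargin cells lower, with -2.38 ± 0.74 (adjusted p = 0.019). The thapsigargin value rests on 28 and 16 counts. The etoposide call was lost without cycling replicate 1 (adjusted p = 0.068) or 2 (0.084), without etoposide replicate 1 (0.059), 2 (0.11) or 3 (0.053), and with no filter on low counts (0.097). The thapsigargin call was lost without either thapsigargin library (adjusted p = 0.077 and 0.13) and with no filter (0.068). Quiescent cells differed by -1.05 ± 0.48 (adjusted p = 0.14), called without quiescent replicate 3 (0.0065), and irradiated cells by -1.01 ± 0.52 (adjusted p = 0.14), called in a fit of the 2 states alone (2.7e-05).

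IGFBP7 binds IGFs more weakly than the others and binds insulin as well. It lies at chr4:57030773-57110385, overlapping IGFBP7-AS1 and POLR2B, and 4.12% to 23.8% of its RNA-seq counts of both strands came from the opposite strand, which was not counted. Its RNA-seq level was 117 and 116 CPM in cycling libraries, 32.1, 54.9 and 98.7 in quiescent ones, 90.0, 114 and 91.0 in irradiated ones, 318, 237 and 208 in etoposide ones, and 58.5 and 46.2 in thapsigargin ones. Etoposide libraries were above all others and every quiescent, irradiated and thapsigargin library was below both cycling ones. The log2 fold change was 1.13 ± 0.34 (SE) in etoposide cells (adjusted p = 0.021) and -1.15 ± 0.36 with thapsigargin (adjusted p = 0.034). The etoposide call was lost without cycling replicate 1 or 2 (adjusted p = 0.11 in both) or etoposide replicate 1 (0.063), and the thapsigargin call without any single library of the comparison (adjusted p from 0.053 to 0.15), with no filter on low counts (0.075) and with counts of both strands (0.052). In quiescent cells the value was -0.91 ± 0.33 (adjusted p = 0.078), called with DESeq2 (0.033) and without quiescent replicate 3 (0.0028), and in irradiated cells -0.24 ± 0.33 (0.60), called in a fit of the 2 states alone (0.040).

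Footprints of IGFBP7 were 107, 108 and 133 CPM in cycling libraries, 21.6, 52.1 and 89.3 in quiescent ones, 81.6, 81.8 and 89.7 in irradiated ones, 361, 312 and 305 in etoposide ones, and 47.3 and 29.6 in thapsigargin ones. As in RNA-seq, only the etoposide libraries lay above the cycling ones and all others lay below them. They rose by 1.49 ± 0.33 (log2, SE) in etoposide cells (adjusted p = 0.0031), called under all 13 alternatives. They fell by 1.10 ± 0.33 in quiescent cells (adjusted p = 0.028) and by 1.60 ± 0.43 with thapsigargin (adjusted p = 0.0087). The quiescent call was lost without any 1 cycling library or quiescent replicate 2 (adjusted p from 0.052 to 0.10), with no filter on low counts (0.10) and in a fit of the 2 states alone (0.18). The thapsigargin call was lost without thapsigargin replicate 2 (0.088). Irradiated cells differed by -0.46 ± 0.34 (adjusted p = 0.30), called in a fit of the 2 states alone (0.0015).

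IGFBP4, which is known mainly as an inhibitor of IGF action and is cut by the protease PAPP-A, was also highest in etoposide cells. It lies at chr17:40443450-40457725 on the plus strand. RNA-seq gave 263 and 345 CPM in cycling libraries, 179, 285 and 178 in quiescent ones, 382, 318 and 329 in irradiated ones, 500, 779 and 894 in etoposide ones, and 155 and 446 CPM in thapsigargin ones. The etoposide libraries stood above all others, and the 2 thapsigargin libraries lay on either side of the cycling ones. IGFBP4 mRNA rose by 1.25 ± 0.37 (log2, SE) in etoposide cells (adjusted p = 0.019), a call lost without cycling replicate 1 (adjusted p = 0.15) or 2 (0.057), without etoposide replicate 3 (0.057) and with no filter on low counts (0.051). The other states differed from cycling cells by -0.51 to 0.17, with adjusted p of 0.39 or more. Footprints were 144, 120 and 145 CPM in cycling libraries, 33.2, 51.3 and 151 in quiescent ones, 110, 128 and 144 in irradiated ones, 391, 447 and 418 in etoposide ones, and 95.5 and 92.2 in thapsigargin ones. Only etoposide cells were called, with a rise of 1.62 ± 0.37 (adjusted p = 0.0039) that was called under all 13 alternatives. Quiescent cells were called lower without replicate 3, their highest library (adjusted p = 0.00015), and thapsigargin cells lower in a fit of the 2 states alone (0.039).

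IGFBP5, which binds the extracellular matrix as well as IGFs, fell most with thapsigargin among the binding proteins in RNA-seq. It lies at chr2:216672105-216695549 on the minus strand, with IGFBP-AS1 in its span. RNA-seq gave 1486 and 2395 CPM in cycling libraries, 1085, 2558 and 2726 in quiescent ones, 4163, 3188 and 3211 in irradiated ones, 3193, 2910 and 3650 in etoposide ones, and 210 and 293 CPM in thapsigargin ones. The thapsigargin libraries were below all others and the 6 senescent libraries above all others. Without TMM scaling, however, quiescent replicate 3 (2853 CPM) lay above etoposide replicate 2 (2783 CPM). With thapsigargin the log2 change was -2.95 ± 0.37 (SE, adjusted p = 0.00011), called under all 10 alternatives. In irradiated cells the difference was 0.86 ± 0.33 (adjusted p = 0.056) and in etoposide cells 0.74 ± 0.32 (adjusted p = 0.093). DESeq2 called both (adjusted p = 0.022 and 0.043), as did fits of the 2 states alone (0.012 and 0.014), and the irradiated one was called without cycling replicate 2 (0.050).

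IGFBP5 footprints were 1550, 1939 and 1856 CPM in cycling libraries, 830, 1999 and 3169 in quiescent ones, 3071, 2925 and 3110 in irradiated ones, 3607, 3375 and 3611 in etoposide ones, and 344 and 310 in thapsigargin ones. Both senescent states lay above cycling cells, and thapsigargin libraries lay below every other library. They rose by 0.99 ± 0.30 (log2, SE) in etoposide cells (adjusted p = 0.020) and fell by 2.45 ± 0.37 with thapsigargin (adjusted p = 0.00016). In irradiated cells they differed by 0.77 ± 0.30 (adjusted p = 0.054), called with DESeq2 (0.040) and in a fit of the 2 states alone (1.2e-06). The etoposide call was lost without cycling replicate 1 (adjusted p = 0.077) or 3 (0.052), without etoposide replicate 1 (0.077), 2 (0.063) or 3 (0.078), and with no filter (0.092). Without quiescent replicate 1, the lowest of its state, quiescent cells were called higher than cycling ones by 0.54 (adjusted p = 0.016).

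IGFBP6, which prefers IGF2 over IGF1, fell in quiescent and in both kinds of senescent cells. It lies at chr12:53097667-53102340 on the plus strand. RNA-seq gave 79.8 and 86.7 CPM in cycling libraries, 31.4, 35.8 and 21.7 in quiescent ones, 25.3, 29.9 and 24.2 in irradiated ones, 29.6, 35.3 and 33.6 in etoposide ones, and 71.3 and 72.8 CPM in thapsigargin ones. All 9 quiescent, irradiated and etoposide libraries lay below the 4 cycling and thapsigargin libraries, and those 3 states overlapped with each other. The log2 change was -1.49 ± 0.18 (SE) in quiescent (adjusted p = 0.00036), -1.65 ± 0.18 in irradiated (1.1e-05) and -1.34 ± 0.17 in etoposide cells (5.7e-05), each called under all 12 alternatives. The quiescent call was among those kept without quiescent replicate 2, the library with MKI67 in the cycling range. With thapsigargin it was -0.21 ± 0.19 (adjusted p = 0.47).

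IGFBP6 footprints were 167, 150 and 179 CPM in cycling libraries, 27.5, 38.5 and 53.6 in quiescent ones, 25.8, 25.4 and 22.6 in irradiated ones, 33.4, 50.0 and 42.2 in etoposide ones, and 43.7 and 73.5 in thapsigargin ones. Every library outside cycling lay below all cycling ones. The log2 change of footprints was -2.05 ± 0.22 (SE) in quiescent (adjusted p = 9.7e-05), -2.74 ± 0.24 in irradiated (1.1e-06), -1.98 ± 0.23 in etoposide (1.2e-05) and -1.49 ± 0.27 in thapsigargin cells (0.00063), all called under every alternative run. Between the senescent states, irradiated cells had less than etoposide cells by -0.77 ± 0.25 (adjusted p = 0.037), a call lost when any 1 of the 6 libraries was left out (adjusted p from 0.052 to 0.20) and with RLE scaling (0.059).

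**Figure D3:**
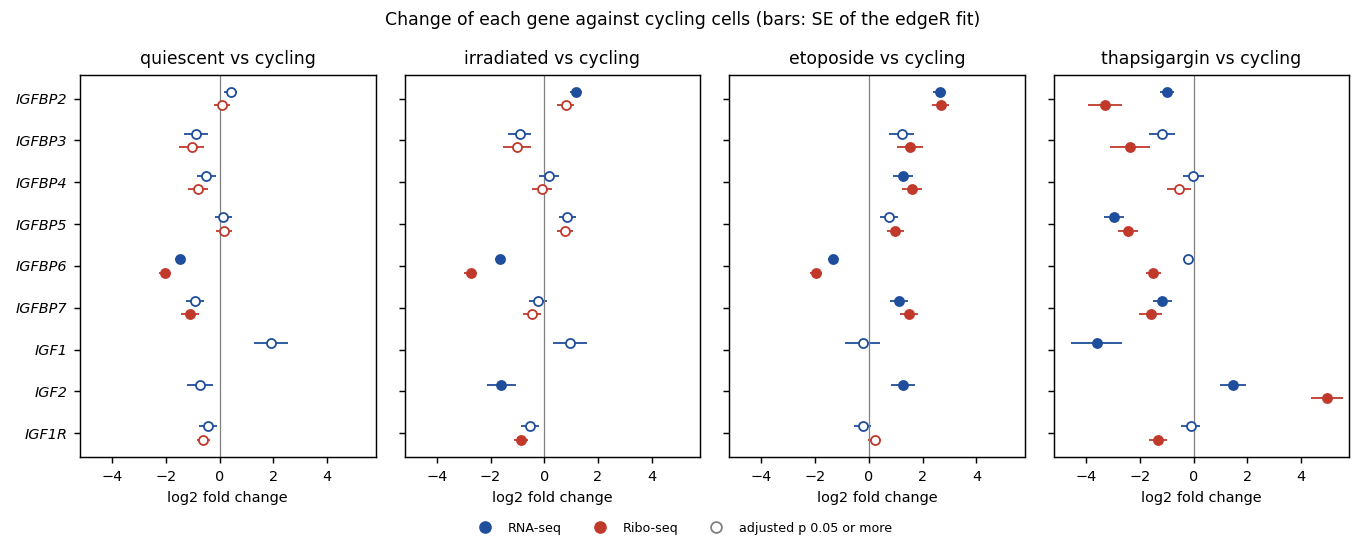
Log2 fold change of each gene against cycling cells (x axis) in 4 states, from RNA-seq (blue) and Ribo-seq (red), with bars for the SE and filled points where the adjusted p was under 0.05. IGF1 has no Ribo-seq value, and IGF2 is drawn for Ribo-seq only with thapsigargin. It passed the Ribo-seq count filter only through those libraries, so its filled point there is no support for a rise. IGFBP6 lies left of 0 in quiescent, irradiated and etoposide cells, from -1.34 to -2.74, and IGFBP2 lies at 2.64 and 2.67 in etoposide cells.

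Etoposide and irradiation both gave senescent cells, with CDKN1A, the p21 cell cycle inhibitor, at 2242 to 2638 CPM in irradiated and 2640 to 2931 CPM in etoposide RNA-seq libraries against 714 and 759 CPM in cycling ones. The binding proteins differed between them. In RNA-seq 5 of 9 genes were called lower in irradiated than in etoposide cells (22.5% of all genes were called in that comparison) and none higher: IGFBP2 by -1.46 ± 0.20 (log2, SE), IGFBP3 by -2.14 ± 0.41, IGFBP4 by -1.08 ± 0.32, IGFBP7 by -1.37 ± 0.30 and IGF2, given above. In Ribo-seq 6 of 8 were called lower (21.2% of all genes): IGFBP2 by -1.88 ± 0.32, IGFBP3 by -2.55 ± 0.53, IGFBP4 by -1.72 ± 0.38, IGFBP7 by -1.95 ± 0.34, IGF1R by -1.09 ± 0.25 and IGFBP6. The IGFBP5 difference was 0.12 ± 0.28 for mRNA (adjusted p = 0.81) and -0.22 ± 0.30 for footprints (adjusted p = 0.69). The mRNA call of IGFBP4 (adjusted p = 0.028) was lost without irradiated replicate 1, 2 or 3 or etoposide replicate 2 or 3 (adjusted p from 0.063 to 0.098) and with no filter (0.072), and the IGF1R call (adjusted p = 0.0066) without etoposide replicate 2 (0.053).

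Quiescent cells are labelled as arrested but not senescent, with MKI67 of replicate 2 in the cycling range as given above. Against them more of the 9 genes were called in etoposide than in irradiated cells. In etoposide cells 6 of 9 genes were called in RNA-seq (41.6% of all genes), 5 of them higher: IGFBP2 by 2.23 ± 0.21 (log2, SE), IGFBP3 by 2.10 ± 0.41, IGFBP4 by 1.76 ± 0.33, IGFBP7 by 2.04 ± 0.31 and IGF2 by 1.99 ± 0.41, with IGF1 the one lower. In Ribo-seq 6 of 8 were called, all higher (35.4% of all genes): IGFBP2, IGFBP3, IGFBP4 and IGFBP7 by 2.42 to 2.59, IGF1R by 0.82 and IGFBP5 by 0.82 ± 0.30 (adjusted p = 0.046). IGFBP5 lost that call without quiescent replicate 2 (adjusted p = 0.10), without etoposide replicate 1, 2 or 3 (0.13 to 0.15), without the thapsigargin libraries (0.062), with RLE scaling (0.073), with counts of both strands (0.059), with no filter (0.15) and in a fit of the 2 states alone (0.23). In irradiated cells 1 of 9 was called in RNA-seq (IGFBP2, with 18.7% of all genes called) and 0 of 8 in Ribo-seq (14% of all genes) by edgeR. DESeq2 also called 0 in Ribo-seq. An unadjusted edgeR p under 0.05 was met there by 2 of the 8 (IGFBP2 and IGFBP6) and by 3227 of all 11762 genes. Quiescent libraries spread widely: replicate 1 was the lowest of its state and replicate 3 the highest in Ribo-seq for all 9 genes except IGF2, in which replicate 2 was the lowest. Of irradiated against quiescent cells, Ribo-seq called 4 genes without quiescent replicate 3 and 1 without quiescent replicate 1, and RNA-seq called 2 without quiescent replicate 3 and 0 without irradiated replicate 2.

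**Figure D4:**
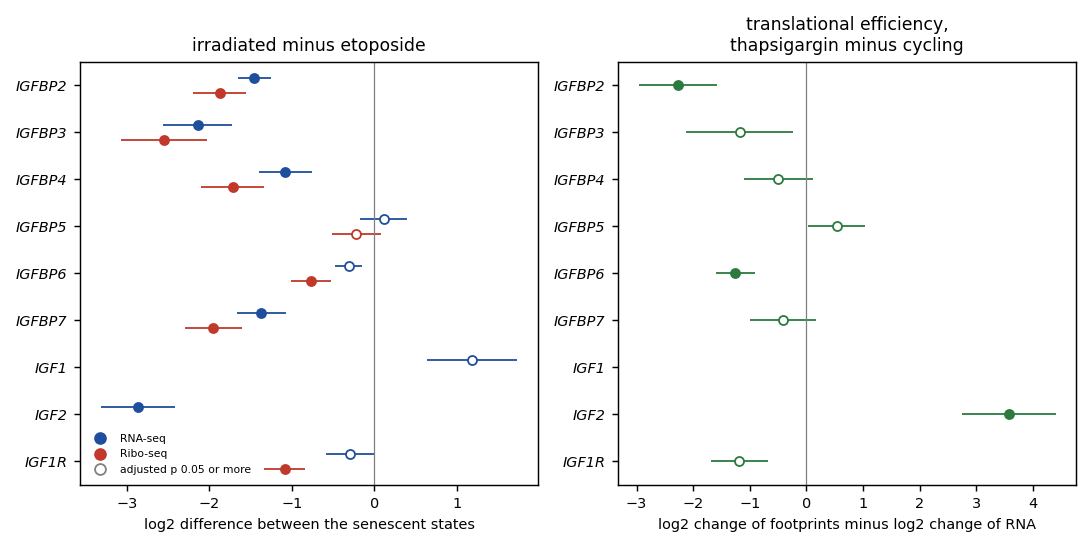
Left, log2 difference of irradiated minus etoposide cells for each gene from RNA-seq (blue) and Ribo-seq (red). Right, log2 change of translational efficiency with thapsigargin against cycling cells (footprint change minus RNA change). Bars are the SE and filled points have an adjusted p under 0.05, IGF1 has no Ribo-seq value, and IGF2 is not drawn for Ribo-seq on the left. On the left IGFBP2, IGFBP3, IGFBP4 and IGFBP7 lie below 0 in both assays. Of the filled points on the right, those of IGFBP2 and IGFBP6 lie below 0 and that of IGF2 above it. IGF2 passed the Ribo-seq count filter only through its thapsigargin libraries, so its filled point is no support for a rise.

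Translational efficiency, the ratio of footprints to mRNA, was tested as the interaction of assay and state over all 27 libraries. In quiescent, irradiated and etoposide cells edgeR called 0 of 8 genes, and 0.00854%, 0.0768% and 0.0683% of the 11714 genes tested were called in those comparisons. DESeq2 called 0 of 8 too. Unadjusted edgeR p-values under 0.05 were met by 405, 820 and 414 of all genes tested, and by 0, 1 and 1 of these 8. The gene was IGFBP6 both times, at -0.98 ± 0.31 (log2, SE) in irradiated cells (adjusted p = 0.42) and -0.67 ± 0.30 in etoposide cells (adjusted p = 1.00). A fit of irradiated and cycling cells alone called it at -1.13 (adjusted p = 0.00022). Leaving out IGF2, the remaining 6 genes lay between -0.28 (IGFBP2 in irradiated cells) and 0.42 (IGF1R in etoposide cells). With thapsigargin 3 of 8 were called (20.7% of all genes): IGFBP2 at -2.27 ± 0.69 (adjusted p = 0.021), IGFBP6 at -1.25 ± 0.34 (adjusted p = 0.011) and IGF2 at 3.58 ± 0.82. IGF2 again entered only through its thapsigargin footprints, so its call is no support for that count or for a rise. The IGFBP2 value rests on 5 and 9 thapsigargin footprint counts. The mRNA difference of IGFBP6 with thapsigargin was not called while its footprints fell, and IGFBP5, whose mRNA and footprints both fell, had an efficiency difference of 0.53 ± 0.51 (adjusted p = 0.49). The IGFBP2 and IGFBP6 calls were both lost without thapsigargin Ribo-seq replicate 1 (adjusted p = 0.13 and 0.083), which left 1 gene called. IGF1R, at -1.18 ± 0.51 (adjusted p = 0.099), was called without cycling RNA-seq replicate 2 (0.043) or thapsigargin RNA-seq replicate 1 (0.019). The median over all genes was -0.14, and each of these ratios joins the 2 gene lists.

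The genes that act on the axis around these 9 are given by list, with the gene of lowest adjusted p in each RNA-seq comparison with cycling cells. For the counts called in RNA-seq, the shares of all genes called were 15.5% in quiescent, 34.9% in irradiated, 34.5% in etoposide and 24.5% in thapsigargin cells, and several list counts lie near them. Of 8 IGFBP proteases and their inhibitors, all tested in RNA-seq, 0 were called in quiescent cells, 6 in irradiated (2 higher, 4 lower), 5 in etoposide (4 higher, 1 lower) and 5 in thapsigargin cells (1 higher, 4 lower). ADAM12, a metalloprotease that cuts IGFBP3 and IGFBP5, fell from 41.7 ± 2.27 CPM (SD, n = 2) to 9.48 ± 0.83 (n = 3) in irradiated cells, a log2 change of -2.13 ± 0.23 (adjusted p = 1.1e-05), and was also called lower in etoposide (-1.24) and thapsigargin cells (-1.93). STC1, an inhibitor of PAPP-A, rose from 23.9 ± 5.61 to 122 ± 28.6 CPM in etoposide cells, by 2.35 ± 0.23 (adjusted p = 4e-06), and with thapsigargin by 0.87 ± 0.23 (adjusted p = 0.014), but was called lower in irradiated cells, at -0.77 ± 0.21 (adjusted p = 0.012) with footprints at -1.88 ± 0.35 (adjusted p = 0.00063). PAPPA, the gene of PAPP-A itself, was called higher in etoposide cells too, by 1.68 ± 0.27 (adjusted p = 0.00033) with footprints up by 2.44 ± 0.32 (adjusted p = 4e-05). Its mRNA was called higher in irradiated cells (0.91 ± 0.26, adjusted p = 0.016) and lower with thapsigargin (-1.39 ± 0.28, adjusted p = 0.0034). PAPPA2, a protease of IGFBP3 and IGFBP5, fell from 4.02 ± 0.74 to 0.25 ± 0.036 CPM with thapsigargin, by 3.97 ± 0.40 (adjusted p = 1.8e-05), and was called higher in irradiated cells (0.80 ± 0.29, adjusted p = 0.049). Footprints of ADAM12 (-2.29 ± 0.47), STC1 (2.56 ± 0.27) and PAPPA2 (-3.16 ± 1.08) were called in the same comparisons. In Ribo-seq 7 genes of this list were tested. There 3 were called in quiescent cells (22.6% of all genes), 5 in irradiated (40%) and 5 in thapsigargin cells (44.3%), all lower, while etoposide cells had 4 called (33.6%), 3 higher and 1 lower.

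Of 6 other receptors and carriers, IGF2R and INSR were expressed enough to be tested, and IGF2R, which takes IGF2 up for degradation, rose in etoposide cells from 85.6 ± 19.2 to 165 ± 15.7 CPM, by 0.95 ± 0.26 (log2, SE, adjusted p = 0.013), with footprints up by 1.30 ± 0.31. The other 3 states called neither in RNA-seq. With thapsigargin the footprints of both were called lower, INSR at -2.50 ± 0.70 (adjusted p = 0.0099) and IGF2R at -1.59 ± 0.38 (adjusted p = 0.0044), as was the translational efficiency of IGF2R (-1.51 ± 0.49, adjusted p = 0.032). Of 8 further proteins with an IGFBP domain, 7 were tested, and 1, 3, 4 and 4 were called in quiescent, irradiated, etoposide and thapsigargin cells (15.5%, 34.9%, 34.5% and 24.5% of all genes). CCN3, a matrix protein, fell in quiescent cells by 1.37 ± 0.19 (adjusted p = 0.00089) and in irradiated cells by 1.89 ± 0.20 (adjusted p = 1e-05). It was also called lower in etoposide cells (-0.78 ± 0.19, adjusted p = 0.0064), but higher with thapsigargin (1.09 ± 0.21, adjusted p = 0.0022). CCN4, a relative, rose in etoposide cells from 10.7 ± 1.05 to 28.4 ± 7.83 CPM, by 1.40 ± 0.21 (adjusted p = 0.00018), and had a log2 change of -3.28 ± 0.25 with thapsigargin (adjusted p = 2.3e-06), where both Ribo-seq libraries held 0 counts.

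Downstream of the receptor, 6 of 8 adaptors were tested, and 1, 3, 4 and 2 were called in quiescent, irradiated, etoposide and thapsigargin cells (15.5%, 34.9%, 34.5% and 24.5% of all genes). IRS2, an adaptor of the insulin and IGF receptors, rose in quiescent cells by 0.84 ± 0.18 (log2, SE, adjusted p = 0.0080), in irradiated cells by 1.04 ± 0.18 (adjusted p = 0.00068) and with thapsigargin from 10.0 ± 2.21 to 46.6 ± 5.94 CPM, by 2.23 ± 0.20 (adjusted p = 7.6e-06). In etoposide cells its mRNA difference of 0.47 ± 0.18 was not called (adjusted p = 0.058), while its footprints rose there by 0.84 ± 0.20 (adjusted p = 0.0042) and in irradiated cells by 1.22 ± 0.20 (adjusted p = 0.00025). Its thapsigargin footprints rose by 3.73 ± 0.22 (adjusted p = 3.3e-08), in a comparison where footprints of IGF1R and of 5 of the 6 binding proteins fell. SHC1, another adaptor, rose by 0.82 ± 0.13 in irradiated and by 0.94 ± 0.13 in etoposide cells (adjusted p = 0.00024 and 7.6e-05), with footprint differences of 0.50 ± 0.19 and 0.33 ± 0.19 that were not called (adjusted p = 0.051 and 0.20). With thapsigargin SHC1 footprints rose by 1.69 ± 0.21 (adjusted p = 3.3e-05), where its mRNA difference was 0.05 ± 0.14 (adjusted p = 0.82). Of 13 genes of PI3K, AKT and FOXO, 12 were tested, with 3 called in quiescent (15.5% of all genes) and 7 in irradiated cells (34.9%), all higher. In etoposide (34.5%) and thapsigargin cells (24.5%) 4 each were called, 2 in each direction. FOXO3, a transcription factor that AKT holds out of the nucleus, rose by 0.59 ± 0.11 in quiescent and by 0.77 ± 0.11 in irradiated cells (adjusted p = 0.0036 and 0.00015), and PIK3R3, a regulatory subunit of PI3K, by 0.78 ± 0.16 in etoposide cells (adjusted p = 0.0021), and PIK3R3 was called higher in quiescent (0.63) and irradiated cells (0.59) too. FOXO1 rose with thapsigargin from 0.16 ± 0.040 to 1.33 ± 0.11 CPM (adjusted p = 0.0026) and was called higher in irradiated cells (1.88 ± 0.61, adjusted p = 0.028). Its footprints were at 0 CPM in all cycling and thapsigargin Ribo-seq libraries and were not tested. All 3 IGF2 mRNA-binding proteins were tested, and IGF2BP1 fell by 0.52 ± 0.15 in etoposide cells (adjusted p = 0.018) and rose by 0.53 ± 0.17 with thapsigargin (adjusted p = 0.033).

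Across libraries, IGFBP3 and IGFBP7 had the most similar profiles of any 2 of the 9 genes, with Pearson r of 0.93 over 13 RNA-seq and 0.98 over 14 Ribo-seq libraries (log2 of CPM plus 1). IGFBP6 had negative r with IGF1 (-0.67), IGFBP5 (-0.64) and IGFBP2 (-0.60) in RNA-seq, and r of -0.20 with IGFBP5 and -0.19 with IGFBP2 in Ribo-seq. Among all other genes kept in RNA-seq, the 2 most like IGFBP2 were HSD11B1 (r = 0.98, and 0.97 in Ribo-seq) and SHC4 (0.98 and 0.82). Those most like IGFBP3 were PCYOX1 (0.99 and 0.93) and ERMP1 (0.98 and 0.80), and those most like IGFBP7 were GINM1 (0.99 and 0.93) and TM2D2 (0.97 and 0.74). IGFBP4 was most like CD44 (0.95 and 0.91), IGFBP5 like CCDC80 (0.97 and 0.90), IGFBP6 like ATP6V0E2 (0.97 and 0.58) and IGF1R like CD248 (0.96 and 0.93). IGF1 was most like SCN7A (0.97) and IGF2 like EREG, an epidermal growth factor family member, at 0.95 in RNA-seq and -0.051 in Ribo-seq. These r values describe the same libraries, which share states and scaling, and they were picked as the highest among all genes.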

How the data were processed

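The authors deposited raw counts of reads per gene, with a column for both strands and one for each strand. The submitters' processing notes name hg38, STAR 2.7.10b, DESeq2 1.36.0 and bcl2fastq; the annotation and trimming are not given in the sources used here. The kits set the strand read, reverse for RNA-seq and forward for Ribo-seq, over the 60534 identifiers listed in all libraries; 60461 had a symbol and 19313 were protein coding in RefSeq (GRCh38.p14). Multi-mapping reads (9.43% to 66.9%), unmapped reads (1.35% to 40.7%) and reads outside genes (1.45% to 12.8%) entered no gene's count. Per the labels' protocols, lysates held cycloheximide and RNase I made the footprints, with conflicting incubation times stated. A characteristic calls all thapsigargin libraries footprints, so titles were used.

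The test of protein-coding genes passing filterByExpr was that of edgeR 4.0.16 under R 4.3.3 (TMM, robust quasi-likelihood F test, all 5 states in 1 fit, two-sided), with 7 comparisons per assay and 4 of translational efficiency, adjusted by Benjamini-Hochberg over all genes tested. CPM are counts per 1e6 after TMM scaling. The procedure was tested on simulated data. Alternatives were DESeq2 1.42.0, RLE scaling, no filter, a replicate block, counts of both strands, fits of the 2 states compared, and leaving out each library; leaving out the thapsigargin libraries was added after seeing the data. The members and lists were chosen with earlier results of these data known. A leukocyte marker of the original list is not reported here. Named were all 9 members, the gene of each list with the lowest adjusted p in each RNA-seq comparison with cycling cells where called, and the 2 genes most like each member, of which some are given. Levels were not compared between genes, since lengths were not used here.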

Additional observations from a re-analysis of the deposited data

Results flagged for a closer look

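For 4 genes the libraries of one senescent state all lay above those of cycling cells and the libraries of the other all lay below them, and the difference between the states passed the test. For IGFBP3, irradiated minus etoposide was -2.14 (log2) in RNA-seq and -2.55 in Ribo-seq. For IGFBP7 it was -1.37 in RNA-seq and -1.95 in Ribo-seq. For IGF2 it was -2.87 in RNA-seq, on 6 to 100 counts per library. For IGF1R it was -1.09 in Ribo-seq, where the call was lost without etoposide replicate 2 (adjusted p = 0.053). The lowest IGF1R etoposide library stood at 51.0 CPM against 50.7 in the highest cycling one, and without TMM scaling these 2 states overlapped. In all 6 cases the etoposide libraries were the higher ones. Irradiated cells alone were called different from cycling cells only for IGF2 mRNA and IGF1R footprints among these.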

How the results depend on the processing

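Against cycling cells, IGFBP6 in quiescent and in both senescent states, IGFBP2 in etoposide cells and IGFBP5 with thapsigargin kept their direction and their call in both assays under every alternative run. So did IGFBP2, IGFBP3 and IGFBP7 between the senescent states, and IGFBP2, IGFBP3, IGFBP4 and IGFBP7 in etoposide against quiescent cells. Counts of genes called moved by more than 1.5 times as follows. In RNA-seq, quiescent against cycling went from 1 to 3 with DESeq2, 2 without the thapsigargin libraries and 1 to 3 on leaving out 1 library. Irradiated against cycling went from 3 to 6 in a fit of the 2 states alone. Etoposide against cycling ranged from 2 to 5 on leaving out 1 library. Thapsigargin against cycling gave 3 with counts of both strands and 1 to 3 on leaving out 1 library. Irradiated against quiescent gave 2 with DESeq2 and in a fit of the 2 states, and 0 to 2 on leaving out 1 library. In Ribo-seq, quiescent against cycling gave 1 with no filter and in a fit of the 2 states, and 1 to 5 on leaving out 1 library. Irradiated against cycling gave 4 with DESeq2, 6 in a fit of the 2 states, and 1 to 2 on leaving out 1 library. Irradiated against quiescent gave 1 without the thapsigargin libraries and 0 to 4 on leaving out 1 library. For translational efficiency, irradiated against cycling gave 1 in a fit of the 2 states, and thapsigargin 1 to 4 on leaving out 1 library.

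No called gene changed direction. Among values not called, IGF1 mRNA in etoposide cells turned to 0.19 (log2) with counts of both strands, and IGFBP4 mRNA with thapsigargin to 0.0027 with DESeq2, 0.0032 with RLE scaling and 0.020 in a fit of the 2 states. On leaving out 1 library, RNA-seq values turned for IGFBP5 in quiescent cells (-0.17 to 0.51), IGF1R in quiescent (-0.78 to 0.02), etoposide (-0.58 to 0.22) and thapsigargin cells (-0.77 to 0.34), IGFBP4 in irradiated (-0.0074 to 0.38) and thapsigargin cells (-0.97 to 0.55), and IGF1 in etoposide cells (-0.62 to 0.02). Ribo-seq values turned for IGFBP2 (-0.46 to 0.43) and IGFBP5 (-0.33 to 0.54) in quiescent cells, and the efficiency of IGFBP4 with thapsigargin (-1.11 to 0.40). The cause of these moves was not tested. The main fits did not pair samples by replicate number. Deviations of same-numbered libraries of different states correlated from -0.37 to 0.69 in RNA-seq and from -0.21 to 0.32 in Ribo-seq. Between RNA-seq and Ribo-seq of the same state, r ran from -0.036 to 0.63 (median 0.11) for the same number and from -0.60 to 0.45 (median -0.065) for other numbers. Whether same-numbered libraries of both assays came from the same culture was not tested, so the assays may not be independent. With the replicate block the counts of these genes called changed by at most 1.5 times, the most for irradiated against cycling Ribo-seq (from 2 to 3), where the block added IGFBP5 footprints in irradiated cells (0.78, adjusted p = 0.044). It also added the efficiency of IGFBP3 with thapsigargin (-1.04, adjusted p = 0.023).

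Over all genes, fits of the 2 states alone called 723 genes in quiescent RNA-seq where the fit of all states called 2069, 1556 with thapsigargin (3262), 1734 in quiescent Ribo-seq (2659), 6089 in etoposide Ribo-seq (3952), 4185 for irradiated against etoposide Ribo-seq (2490), and in translational efficiency 759 for irradiated (9), 28 for etoposide (8) and 1061 for thapsigargin (2422). DESeq2 called 6, 32 and 40 genes for the efficiency of quiescent, irradiated and etoposide cells, where edgeR called 1, 9 and 8. In that order, no filter gave 2, 5 and 15, the replicate block gave 0 and 3 for the first 2, RLE scaling and counts of both strands gave 0 for quiescent cells, and leaving out the thapsigargin libraries gave 14 and 16 for the last 2. Leaving out 1 library took the RNA-seq counts of all genes as low as 712 in quiescent, 2793 in irradiated, 2634 in etoposide and 1606 in thapsigargin cells, 1430 for irradiated against quiescent and 1843 for irradiated against etoposide. The lowest such Ribo-seq counts were 1663 in quiescent cells, 910 for irradiated against quiescent and 1591 for irradiated against etoposide, and efficiency with thapsigargin ran from 1544 to 3668. IGF1 and IGF2 had the fewest RNA-seq counts of the 9 genes, with at most 121 in a library, and the part of depth in this was not tested.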
